A study of Homo sapiens with 43 samples.

Results

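A set of 1033 chromatin regions carried CDK9 in SUDHL5 cells after the compound CDK-TCIP1 and were free of CDK9 peaks in untreated cells of both lines studied, SUDHL5 and KARPAS422. CDK9 peaks of all 12 CDK9 lists on chromosomes 1 to 22 and X were merged wherever they overlapped by at least 1 bp, which gave 25115 regions. A region belonged to the set when all 4 treated SUDHL5 lists (2 with each of 2 CDK9 antibodies) had a peak in it and none of the 4 SUDHL5 DMSO lists or the 2 KARPAS422 DMSO lists did. Both SUDHL5 conditions alone left 1959 regions, or 7.80% of all, and the KARPAS422 condition left the 1033, or 4.11%. The regions were thus selected on the presence of CDK9 peaks in these lists, and those values are given as a description. Of the 1033, 285 (27.6%) were gene-end regions, lying within 1 kb of an end of an annotated gene, and 748 were distal, of which 508 lay inside a gene and 240 outside any gene.

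SUDHL5 and KARPAS422 are established human cell lines derived from diffuse large B-cell lymphomas, studied here in culture, and each stands for 1 tumour. Cells received 30 nM CDK-TCIP1, a bivalent molecule that binds CDK9 and the repressor BCL6, or DMSO, at a final 0.1% DMSO in both arms. CDK9 was mapped by chromatin immunoprecipitation and sequencing after 2 h in both arms by the labels, with 2 lists per arm and antibody. The names of the deposited DMSO lists of CDK9 give 0 h instead, so the time of these controls is uncertain. SUDHL5 was probed with 2 antibodies, ab239364 and CST2316S, and KARPAS422 with the latter alone, and no other allele or agent is named in the labels. In SUDHL5, RNA polymerase II phosphorylated on serine 5 (Ser5P) or serine 2 (Ser2P) of its C-terminal repeats was mapped in 2 lists per group and total polymerase (Pol II) in 3, each in cells given DMSO for 4 h or the compound for 2 h or 4 h. The labels do not say whether replicates were separate cultures, so the permutation p-values below measure only the spread between these samples.

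CDK9 is the kinase subunit of P-TEFb, which releases polymerase paused near gene starts by phosphorylating pausing factors and the polymerase tail. Ser5P marks polymerase around initiation and pausing, and Ser2P accumulates as polymerase elongates. BCL6 is a zinc-finger repressor of germinal-centre B cells that recruits corepressor complexes to genes of cell-cycle arrest, cell death and plasma-cell differentiation. It acts from promoters and from distal enhancers, and its core recognition sequence resembles that of the STAT factors.

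The lists differed in length, and presence of a peak in a list was the readout. The SUDHL5 DMSO lists of CDK9 held 915 and 3508 peaks with ab239364 and 1611 and 1264 with CST2316S, against 9262, 11148, 10005 and 9761 in the treated lists. KARPAS422 had 6689 and 7804 peaks in DMSO and 14554 and 10297 after CDK-TCIP1. Fewer peaks in a list and less CDK9 at a site cannot be told apart in these data, since no read totals are in the lists and the sequencing depth is unknown. With the 915 best peaks of every CDK9 list, 55 regions met the rule, 18 of them at gene ends. The polymerase lists ran from 10816 to 17784 peaks for Ser5P, 6519 to 28951 for Ser2P and 138 to 4000 for Pol II, and the Pol II list of 138 peaks (4 h, replicate 1) stood apart. Ser5P peaks covered all 7 B-cell marker genes checked, 2 of 7 T-cell markers (CD3E and CD247) and 0 of 7 myeloid markers.

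A first set of 4 gene-end regions shows where CDK9 appeared relative to gene starts. These are the best-ranked gene-end regions (by the mean rank of their q-value over the 4 treated SUDHL5 lists) that overlap a promoter in the RefSeq table of GRCh38.p14. Each line gives the bases just before an annotated gene start, 5′ to 3′ on the gene's strand, stopping where another protein-coding gene begins. Capitals mark TTCNNNGAA, the core shared by BCL6 and STAT sites, the ICE2 match also being one of the closer BCL6 form TTCCTNGAA on the other strand. The common letters GGAA were left in lower case, and the other motifs searched had no match in these stretches.
MITD1: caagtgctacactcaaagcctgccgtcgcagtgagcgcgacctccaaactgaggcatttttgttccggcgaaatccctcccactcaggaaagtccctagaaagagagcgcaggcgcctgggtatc
ICE2: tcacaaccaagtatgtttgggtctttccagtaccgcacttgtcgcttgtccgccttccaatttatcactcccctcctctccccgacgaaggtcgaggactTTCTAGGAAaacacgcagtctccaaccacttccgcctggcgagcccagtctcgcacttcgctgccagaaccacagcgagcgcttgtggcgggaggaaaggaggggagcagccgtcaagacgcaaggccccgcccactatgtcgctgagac
CYB5B: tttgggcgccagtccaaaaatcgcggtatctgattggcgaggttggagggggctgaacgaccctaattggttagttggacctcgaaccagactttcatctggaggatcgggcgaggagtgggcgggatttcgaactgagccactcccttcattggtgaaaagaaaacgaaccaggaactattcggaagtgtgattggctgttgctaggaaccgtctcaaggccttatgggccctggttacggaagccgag
TARS1: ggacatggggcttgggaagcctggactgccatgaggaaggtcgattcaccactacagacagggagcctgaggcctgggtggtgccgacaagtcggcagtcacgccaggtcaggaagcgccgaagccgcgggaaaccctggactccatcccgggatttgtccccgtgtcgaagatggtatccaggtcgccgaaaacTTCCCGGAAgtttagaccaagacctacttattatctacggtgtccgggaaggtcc

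The first stretch, chr2:99181059-99181183 on the minus strand, is the 125 bases between the divergent starts of MITD1, which acts at the end of cell division, and MRPL30, a protein of the mitochondrial ribosome. Its region (chr2:99180623-99181710) had fold enrichments of 14.2 and 12.2 with ab239364 and 11.4 and 7.60 with CST2316S in treated SUDHL5. Fold enrichment here is the authors' value of the best peak in a region over the background of its own list, and it orders peaks only within a list. The second stretch, chr15:60479143-60479392 on the minus strand, precedes ICE2, which encodes part of the little elongation complex, and holds TTCTAGGAA at 150 to 142 bases before the start. The region there (chr15:60477798-60479965), also at the start of the long noncoding RNA gene RORA-AS1, had fold enrichments of 7.06, 6.89, 16.9 and 10.4 in the same list order.

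The third stretch, chr16:69424369-69424618 on the plus strand, precedes CYB5B, a cytochrome b5 of the outer mitochondrial membrane, and holds none of the capital motifs. Its region (chr16:69424087-69425453) had fold enrichments of 6.94, 6.26, 12.2 and 9.56. The fourth, chr5:33440446-33440695 on the plus strand, precedes the upstream start of TARS1, the cytosolic threonyl-tRNA synthetase, and holds TTCCCGGAA at 55 to 47 bases before that start. Its region (chr5:33439801-33441997), shared with the divergent noncoding gene TARS1-DT, had fold enrichments of 7.42, 6.09, 10.2 and 7.52. All 4 regions had no peak in untreated KARPAS422 and a peak in both treated KARPAS422 lists, with fold enrichments of 14.8 and 16.3 at MITD1, 29.2 and 16.5 at ICE2, 24.9 and 25.2 at CYB5B and 15.5 and 14.4 at TARS1. Ser5P peaks were present in 5 of 6 lists at MITD1, in 6 at ICE2 and TARS1 and in 1 at CYB5B.

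Across promoters as a whole, 252 of the 34961 entries in the table (each 250 bases before to 50 after a start) overlapped one of the 1033 regions. TTCNNNGAA, which is its own reverse complement, occurred in 22 of the 252 (8.73%), in 6.62% of the 8635 promoters in any merged CDK9 region and in 7.66% of all promoters. It was in 9.27% of the 399 promoters in gained regions occupied in both KARPAS422 DMSO lists, above the share in the set. The closer BCL6 form TTCCTNGAA, a subset of the first and searched on both strands, occurred in 7 of the 252 (2.78%), in 1.10% of CDK9-region promoters, in 1.55% of all and in 1.75% of the 399. Of the other motifs, each searched on both strands, TGANTCA (AP-1) was in 8.73%, 4.74% and 7.68% of these same groups, CACGTG (E-box) in 9.13%, 10.7% and 7.27%, and TATAAA (the core-promoter box) in 10.3%, 5.79% and 11.5%. An interferon regulatory factor motif was in 2.78%, 3.28% and 3.58%, ATTTGCAT (octamer) in 2.38%, 1.68% and 1.77%, and GGAA (ETS core) in 95.6%, 96.9% and 95.5%. In the 399 these 6 motifs, in the order given, were in 7.77%, 9.52%, 5.76%, 6.02%, 3.51% and 95.99%. These shares are counts of letters with no test, and divergent promoters share sequence. Median GC content was 63.7% in the 252, 64.7% in CDK9-region promoters and 58.7% in all.

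**Figure D1:**
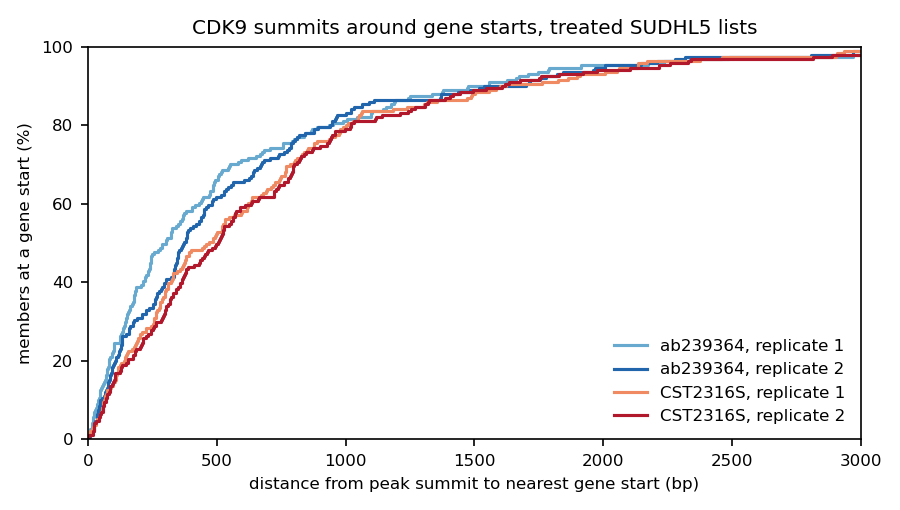
Cumulative share of the 191 regions at an annotated gene start (y axis, percent) whose CDK9 summit lies within a given distance (x axis, bp) of that start, 1 line per treated SUDHL5 list. Lines of ab239364 lie to the left of those of CST2316S at short distances, with medians of 301 and 374 bp against 470 and 506 bp.

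Gene starts made up part of the gene-end class. A start in the promoter table lay within 1 kb of 163 of the 285 gene-end regions (57.2%), against 70.9% of all 9044 gene-end regions and 70.6% of the 337 gene-end regions that were gained in SUDHL5 and occupied in untreated KARPAS422. Some regions counted as distal also lay within 1 kb of a start in the promoter table, which holds inner starts too, and 191 of the 1033 regions did in all. In the treated ab239364 lists the CDK9 summit lay a median of 301 bp (replicate 1) and 374 bp (replicate 2) from the start, and in the CST2316S lists 470 and 506 bp. Protein-coding gene ends were met by 194 of the 285 (68.1%), long noncoding gene ends by 113 (39.6%) and pseudogene ends by 26 (9.12%). The shares over all gene-end regions were 81.3%, 31.4% and 3.99%. Protein-coding ends were thus a smaller part of the 285 and pseudogene ends a larger part, and a region can meet several gene ends.

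The median width of the regions was 1981 bp (quartiles 1400 and 2850, range 456 to 11313), against 837 bp over all 25115 regions and 3109.5 bp over the 656 gained regions occupied in both KARPAS422 DMSO lists. All regions include those made of a single list's peak, whereas the rule joins peaks of at least 4 lists, so the difference from all regions is tied to the rule. Gene-end regions had a median of 1877 bp and distal ones 2024 bp. The widest were distal: 11313 bp inside NCKAP5, 9255 bp inside SLC2A5, which encodes a fructose transporter, 8097 bp inside MYO1E, a class I myosin, 7791 bp inside TPD52 and 7105 bp inside CUL3, the scaffold of a ubiquitin ligase. The nearest SUDHL5 DMSO peak of CDK9 lay a median of 73.3 kb away and within 5 kb of 115 regions (11.1%). Over all regions without a SUDHL5 DMSO peak the median was 106.4 kb and 8.30% were within 5 kb. That background also holds regions found only in KARPAS422 lists. The nearest KARPAS422 DMSO peak lay a median of 82.6 kb away, within 5 kb of 107 regions (10.4%). Over all regions without one these were 53.1 kb and 17.5%, the opposite order, and this background holds regions found only in treated KARPAS422. Neither order is a trait of the set alone, since the line that supplied the background regions differs, and the distances were not tested.

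The 2 antibodies placed their summits close together in most regions. Between the CST2316S replicates the summits of a region lay a median of 63 bp apart, and 79.4% were within 250 bp. Between antibodies the medians ran from 70 to 117 bp over the 4 pairs of lists, with 69.5% to 74.3% of regions within 250 bp. Median fold enrichment over the 1033 regions was 4.39 and 4.58 in the ab239364 lists and 6.88 and 5.93 in the CST2316S lists. By q-value the regions had a median rank percentile of 51.4 and 36.8 in the ab239364 lists and 25.1 and 27.1 in the CST2316S lists, where 0 is the top of a list. They were thus mid-list with the first antibody and in the upper part of the lists with the second.

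The rule's edges were set largely by 1 list. Of the regions clear of DMSO peaks in both lines, 1234 missed exactly 1 of the 4 treated SUDHL5 lists, and 1000 of these missed only ab239364 replicate 1, the shortest of the 4. Without that list the set would hold 2033 regions, 453 at gene ends. A further 264 regions met the rule but for a peak in 1 SUDHL5 DMSO list, and 0 regions showed the opposite pattern of a peak in all 4 SUDHL5 DMSO lists and in no treated list. Just inside the rule were regions at IMP3, near ZEB2, at SMIM41-AS1, at LINC00466 and at the start of PRKCA, with fold enrichments from 1.99 to 8.39. Just outside were regions inside LRCH1, ARID3B, TNFSF8, LINC01222 and SMAP2, with no peak in ab239364 replicate 1 and fold enrichments from 6.005 to 17.3 in the other 3 lists.

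**Figure D2:**
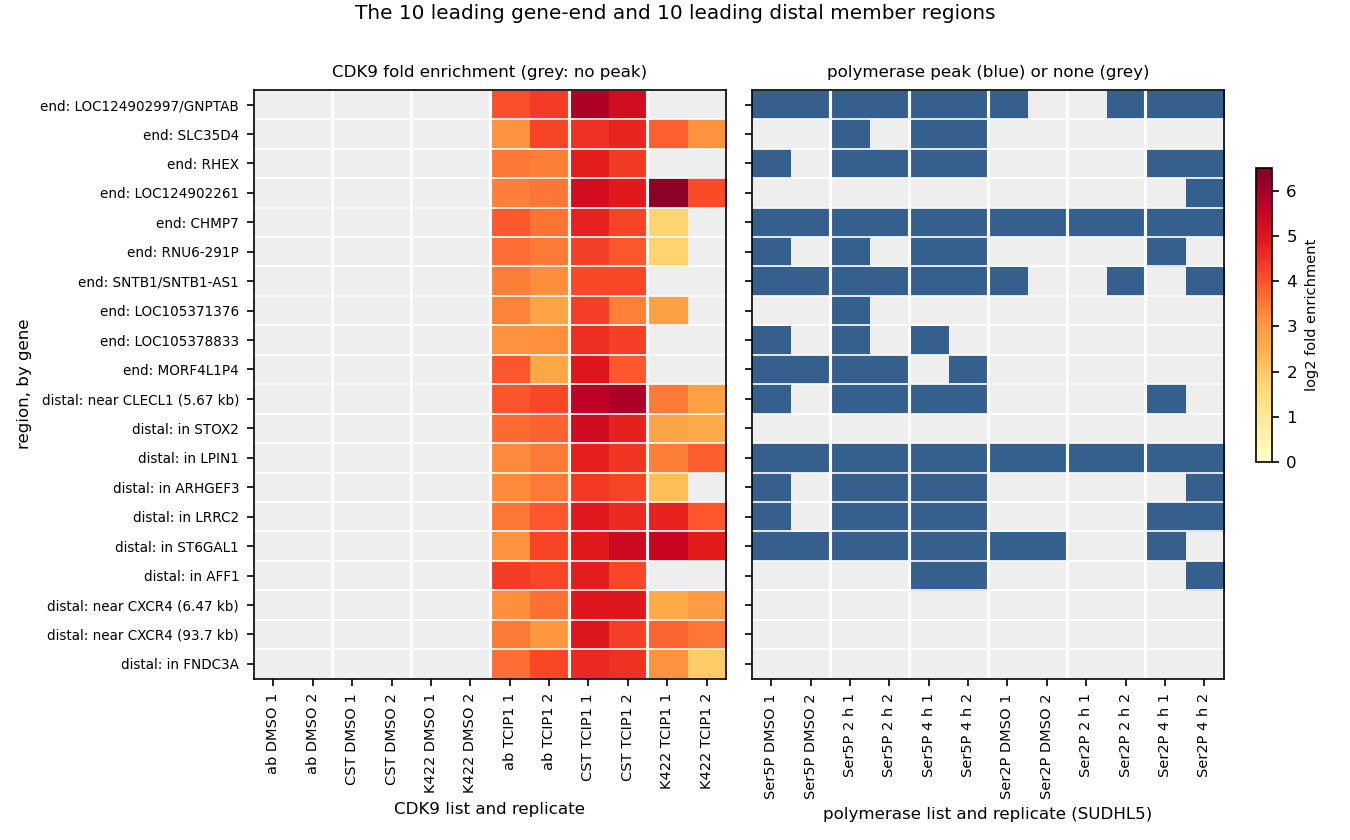
The 10 gene-end and 10 distal regions with the best mean rank (rows, by gene), with log2 fold enrichment in the 12 CDK9 lists at left (ab, ab239364, and CST, CST2316S, in SUDHL5; K422, KARPAS422) and peaks in the 12 Ser5P and Ser2P lists at right. Every row is grey in the 6 DMSO lists and coloured in the 4 treated SUDHL5 lists, as the rule fixes, while treated KARPAS422 and polymerase differ from row to row.

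The leading gene-end region lay at the 3′ end of GNPTAB, which encodes subunits of the enzyme that tags lysosomal proteins, and at an end of the noncoding gene LOC124902997 (chr12:101741551-101745234). Its fold enrichments were 16.6 and 20.01 with ab239364 and 57.7 and 38.1 with CST2316S, and neither treated KARPAS422 list had a peak there. Ser5P was present in all 6 SUDHL5 lists. Next came a region of 6839 bp at an end of SLC35D4 and inside CABLES1, a CDK-binding protein gene, with fold enrichments of 8.69, 18.4, 22.9 and 26.1. The outermost start of RHEX, a regulator of erythroid cell expansion (chr1:206046538-206052439), had fold enrichments of 11.7, 10.9, 28.5 and 20.6 and no treated KARPAS422 peak. Ser2P there was absent from both DMSO lists and both 2 h lists and present in both 4 h lists.

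Several leading gene-end regions met noncoding or pseudogene ends inside or near larger genes. A region at the end of LOC124902261 lies inside C5, the gene of a complement component (chr9:121059517-121060986). Its fold enrichments were 10.7, 11.7, 37.5 and 29.5 in SUDHL5 and 79.2 and 17.2 in treated KARPAS422, with 0 of 6 Ser5P lists. A region at the small RNA pseudogene RNU6-291P lies inside MTOR, the growth-control kinase, and had fold enrichments of 12.5, 11.2, 19.5 and 15.3. The remaining regions of the 10 were at CHMP7, which acts in membrane repair at the nuclear envelope, at SNTB1, a membrane-linked adaptor, at LOC105371376, at LOC105378833 and at MORF4L1P4, with fold enrichments between 6.45 and 31.7. CHMP7 had a Ser5P and a Ser2P peak in all 6 lists of each, and LOC105371376 a Ser5P peak in 1.

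The leading distal region (chr12:9740014-9744160) lay 5.67 kb from CLECL1, a lectin-like receptor gene, in a run of 4 regions over 59.4 kb that reaches CD69, the early activation lectin. Its fold enrichments were 15.6, 17.9, 49.4 and 58.9 in SUDHL5 and 11.04 and 6.97 in treated KARPAS422. A region inside ST6GAL1, the sialyltransferase that makes the ligand of CD22 (chr3:187038786-187045301), had fold enrichments of 8.58, 18.5, 29.8 and 40.98 in SUDHL5 and 44.1 and 29.3 in treated KARPAS422. A pair of regions 6.47 and 93.7 kb from CXCR4, the chemokine receptor of the germinal-centre dark zone, had fold enrichments from 8.08 to 31.9 in SUDHL5 and from 6.02 to 13.6 in treated KARPAS422. Both had no peak in any polymerase list.

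AFF1, which encodes a scaffold of the super elongation complex that holds P-TEFb, carried 4 distal regions and none in any treated KARPAS422 list. The first (chr4:86937999-86940604) had fold enrichments of 20.2, 18.2, 28.5 and 18.0, and Ser5P in both 4 h lists alone. The fourth (chr4:87005449-87007424) had fold enrichments of 8.86, 4.61, 5.94 and 4.52 and Ser5P and Ser2P in all 6 lists of each, so regions within 1 gene differed in polymerase. Other leading distal regions lay inside STOX2, LPIN1 (a phosphatidate phosphatase), ARHGEF3, LRRC2 and FNDC3A, with fold enrichments from 9.66 to 38.8. LPIN1 alone of these 5 had Ser5P and Ser2P in all 6 lists of each. Besides AFF1, the best-ranked distal regions without a peak in treated KARPAS422 lay inside FAM117A, KCNAB1, a potassium channel subunit gene, and JAZF1, a zinc-finger gene, with fold enrichments from 10.2 to 25.3.

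Another of the 1033 lay within 50 kb of 341 of them (33.0%), which formed 143 runs of 2 or more and 37 of 3 or more. Spacing, runs and counts per gene were not taken over all merged CDK9 regions. They describe the set and do not show that it is more clustered than other regions. The longest run held 6 regions over 40.2 kb outside protein-coding genes (chr20:53833543-53873699). Runs of 5 lay at ZNF281 and at ID3, an inhibitor of E proteins, and runs of 4 at CXCR5, AFF1 and PTPRJ, a receptor phosphatase. By gene, LPP, the gene next to BCL6, held the most with 6 over 737.7 kb of gene, followed by MGAT5, a glycosyltransferase gene, with 5. AFF1, AUTS2, PTPRJ, RAD51B, RUNX1T1 and VAV3 held 4 each. In all, 572 of 19974 protein-coding genes (2.86%) had a region inside or within 1 kb, and 91 had at least 2. Chromosome 20 had 6.21 of the regions per 100 merged regions (38 of 612), the most of any chromosome, and chromosome 18 the fewest with 1.99 (12 of 602). The merged regions include many that no treated SUDHL5 list held, and the order depends on this. Over regions in a treated SUDHL5 list the counts were 38 of 368 on chromosome 20 and 12 of 241 on chromosome 18. Chromosome 19, with 21 of 604, had a smaller share than chromosome 18 on that base.

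**Figure D3:**
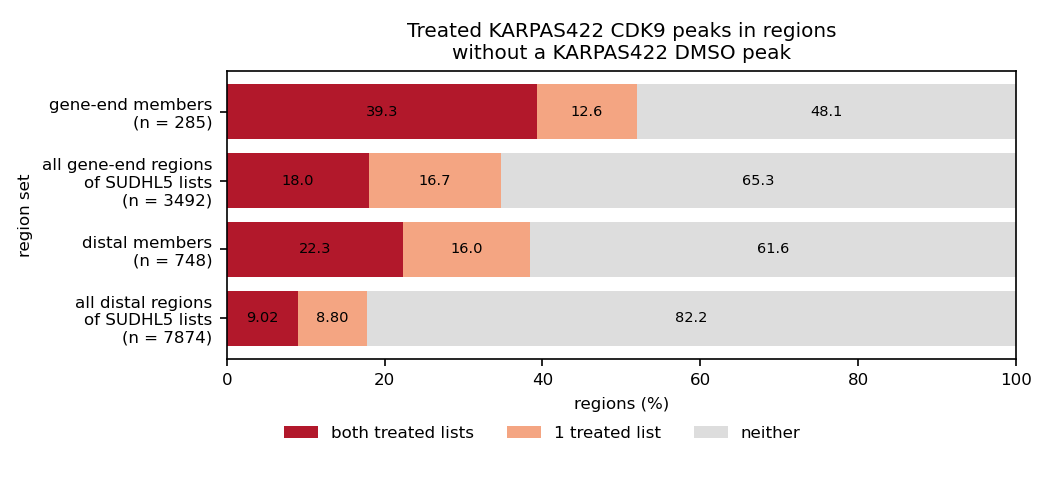
Share of regions (x axis, percent) with a CDK9 peak in both, 1 or neither treated KARPAS422 list, for gene-end and distal regions of the set and for all gene-end and distal regions found in any SUDHL5 CDK9 list, all without a KARPAS422 DMSO peak. A peak in both lists was found for 39.3% of the 285 gene-end and 22.3% of the 748 distal regions, against 18.0% and 9.02%.

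Part of the set also gained CDK9 in KARPAS422 once that line was treated. The treated KARPAS422 lists, which the rule did not use, had a peak in 420 (40.7%, replicate 1) and 294 (28.5%, replicate 2) of the 1033 regions. Both lists had one in 279 regions (27.01%), 1 list in 156 and neither in 598 (57.9%). Over all 16766 regions without a KARPAS422 DMSO peak, 15.4% had a peak in both. That background holds regions found only in treated KARPAS422, and over the 11366 found in any SUDHL5 list the share was 11.8%. The count of 279 became 449 of 2033 regions without ab239364 treated replicate 1 and 437 of 1221 without KARPAS422 DMSO replicate 2. Without KARPAS422 treated replicate 2 it was 419 of 1032, where only 1 treated list remained to hold a peak. Both backgrounds hold regions made of a single list's peak, while the rule joins peaks of at least 4 lists, and wider regions can meet more peaks. How far this bears on the shares was not tested. No test was made of these counts, because regions are not replicates and the rule fixes the DMSO side.

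Gene-end regions were more often shared than distal ones, in the set as in both backgrounds. Of the 285, 112 (39.3%) had a peak in both treated KARPAS422 lists, against a background of 20.4% over all gene-end regions without a KARPAS422 DMSO peak and 18.0% of those in any SUDHL5 list. Of the 748 distal regions, 167 (22.3%) did, against 13.5% and 9.02%. In replicate 1 the shares were 51.2% at gene ends and 36.6% distal, and in replicate 2 they were 40.0% and 24.1%, so the order was the same in both lists. With 2 lists no permutation test could reach 0.05. In SUDHL5 the 279 shared regions and the 598 unshared ones had similar median fold enrichments, of 4.47 and 4.40, 4.75 and 4.51, 7.14 and 6.79, and 6.31 and 5.81 in the 4 treated lists in turn. Median widths were 2030 and 1972.5 bp. Where treated KARPAS422 had peaks, the strongest by rank were those at ST6GAL1, CYB5B, C5, near AP1M1, an adaptor subunit gene, and at LRRC2. The last 2 had fold enrichments of 28.7 and 23.9, and 26.6 and 15.5.

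**Figure D4:**
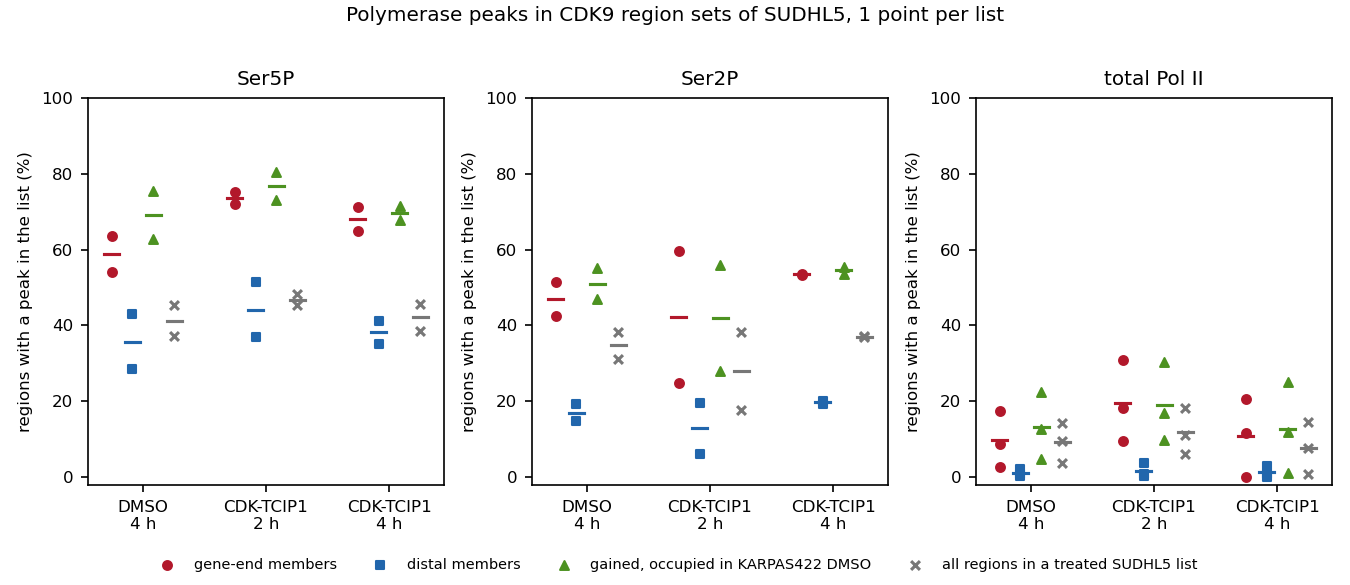
Share of regions (y axis, percent) that overlap a peak of each Ser5P, Ser2P or total Pol II list of SUDHL5 (x axis, treatment and time), for gene-end and distal regions of the set, gained regions occupied in KARPAS422 DMSO and all regions found in a treated SUDHL5 CDK9 list. Points are single lists and bars group means; gene-end points lie above distal points in every Ser5P and Ser2P list.

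Polymerase was measured independently of the rule, and most regions of the set had it in at least 1 list. Ser5P peaks overlapped 48.6% and 35.5% of the 1033 regions in the DMSO lists, 58.0% and 46.6% at 2 h, and 43.4% and 49.6% at 4 h. In all 6 Ser5P lists a peak was present at 252 regions (24.4%), and in none at 307 (29.7%). Over the 16026 regions of treated SUDHL5 CDK9 lists these shares were 28.5% and 42.2%. A peak in any of the 21 polymerase lists was missing at 285 regions (27.6%). The same held for 52.4% of all merged regions and 39.8% of those in treated SUDHL5 CDK9 lists. For gained regions occupied in both KARPAS422 DMSO lists it was 10.7%.

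Within a list, gene-end regions had more polymerase than distal ones. The Ser5P share was 27.4 percentage points higher at gene ends (SD 5.18, n = 6 lists, range 20.6 to 35.03), higher in 6 of 6 lists (exact permutation test, two-sided, p = 0.03125, adjusted p = 0.03125, the smallest that 6 lists allow). For Ser2P the difference was 31.0 points (SD 7.19, n = 6), higher in 6 of 6 lists with the same exact p and adjusted p of 0.03125. For Pol II it was 12.0 points (SD 8.37, n = 9), higher in 8 of 9 lists and 0 in the list of 138 peaks (exact permutation p = 0.0078125, adjusted p = 0.0234). Without that list the Pol II difference was 13.4 points, and with the 138 best peaks of every Pol II list it was 0.583 points. The gap is not particular to the set: over all regions of treated SUDHL5 CDK9 lists the mean share at gene ends and distal regions was 72.8% and 22.7% for Ser5P, 61.2% and 13.6% for Ser2P and 20.04% and 2.17% for Pol II. In the set these means were 66.8% and 39.4%, 47.6% and 16.6%, and 13.3% and 1.38%, a smaller gap for each readout, which was not tested.

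Compared with gained regions that untreated KARPAS422 also occupied, the set had less polymerase. The Ser5P share of the 1033 minus that of the 656 occupied regions was -24.8 percentage points (SD 2.33, n = 6, lower in 6 of 6 lists, exact permutation p = 0.03125, adjusted p = 0.03125). For Ser2P the difference was -24.05 points (SD 3.68, n = 6, lower in 6 of 6, exact permutation p = 0.03125, adjusted p = 0.03125) and for Pol II -10.4 points (SD 6.12, n = 9, lower in 9 of 9, exact permutation p = 0.00391, adjusted p = 0.0234), or -11.5 points without the list of 138 peaks and -0.245 points with the 138 best peaks of every list. The sets also differ in class and width, as given above. Within gene ends the mean Ser5P share was 66.8% in the set and 85.3% in the occupied regions, and within distal regions 39.4% and 57.5%, lower in 6 of 6 lists in each class. In windows of equal width, 500 bp on each side of a region's centre, the Ser5P difference was -22.2 points. Distal regions of the set, at 39.4%, had more Ser5P than the 22.7% mean over all distal regions of treated SUDHL5 CDK9 lists, while gene-end regions, at 66.8%, were below the 72.8% over all gene-end regions. Those larger groups include the set and regions made of a single list's peak. Over all regions of treated SUDHL5 CDK9 lists the median width was 1061 bp, against 1981 bp in the set, and wider regions can meet more peaks. These last comparisons were not tested.

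Treatment moved the shares over all 1033 regions by less than the DMSO lists of the same readout differed from each other. The Ser5P share averaged 42.1 ± 9.24% in DMSO, 52.3 ± 8.08% at 2 h and 46.5 ± 4.38% at 4 h (SD, n = 2 each). Differences from DMSO were 10.2 points at 2 h and 4.40 points at 4 h, with an exact permutation p of 0.667 for each (two-sided, adjusted p = 1 over 6 comparisons). The 2 h difference was 5.26 points after subtracting the share of all merged regions. It was 3.68 points without DMSO replicate 2, 4.50 without 2 h replicate 1, 15.9 without 2 h replicate 2 and 16.7 without DMSO replicate 1. Ser2P differed by -4.31 points at 2 h (exact permutation p = 1) and 3.78 points at 4 h (p = 0.3333, the smallest that 2 against 2 lists can give, by the same exact test). Pol II differed by 3.07 points at 2 h (exact permutation p = 0.5) and 0.419 at 4 h (exact permutation p = 0.9), with adjusted p = 1 for all 6 comparisons and 0.1 the smallest p of 3 against 3 lists. Without the list of 138 peaks the Pol II difference at 4 h was 2.39 points (exact permutation p = 0.4). Ser2P covered 28.3% and 22.4% of the regions in DMSO, 11.3% and 30.7% at 2 h and 29.3% and 28.8% at 4 h, and Pol II 0.968%, 6.49% and 3.10%, then 2.81%, 11.2% and 5.71%, then 0%, 7.94% and 3.87%. Both times share the DMSO lists, which were taken at 4 h.

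At gene ends the Ser5P lists did not overlap between DMSO and treatment. Ser5P overlapped 63.5% and 54.04% of the 285 gene-end regions in DMSO, 75.1% and 71.9% at 2 h and 64.9% and 71.2% at 4 h. Every treated list was above both DMSO lists, by 14.7 points at 2 h and 9.30 at 4 h on average (exact permutation p = 0.3333 for each, the smallest possible, adjusted p = 0.5). Over all gene-end regions of treated SUDHL5 CDK9 lists the Ser5P shares were 71.7% and 63.5% in DMSO, 78.2% and 78.6% at 2 h and 65.9% and 78.7% at 4 h, so there too the 2 h lists lay above both DMSO lists. Ser2P at the 285 gene ends did not overlap between DMSO (51.6% and 42.5%) and 4 h (53.3% and 53.7%) either (exact permutation p = 0.3333, adjusted p = 0.5). This too was not particular to the set. Over all gene-end regions of treated SUDHL5 CDK9 lists the Ser2P shares were 68.2% and 56.1% in DMSO. At 4 h they were 68.6% and 68.5%, again without overlap. In the 748 distal regions the DMSO lists had 42.9% and 28.5% and the 2 h lists 51.5% and 36.9%, so those groups overlapped.

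Single regions that changed polymerase were few. Ser5P was in both 2 h lists and neither DMSO list at 46 regions (4.45%), against 2.43% of all merged regions and 2.73% of those in treated SUDHL5 CDK9 lists, and it was lost at 5 (0.526% and 0.711%). In the same order of backgrounds, at 4 h 33 regions gained Ser5P (1.22% and 1.52%) and 15 lost it (0.908% and 1.20%). Ser2P was gained at 2 regions (0.199% and 0.231%) and lost at 13 (1.43% and 1.75%) at 2 h. At 4 h it was gained at 25 (1.51% and 1.73%) and lost at 14 (0.948% and 1.12%). Pol II was gained at 1 region at 2 h (0.108% and 0.156%), the shared start of ZNF296 and GEMIN7, and lost at 0 (0.00796% and 0.0125%). At 4 h it was gained at 0 (0.00398% and 0.00%) and lost at 0 (0.0319% and 0.0499%). As shares of the set, Ser5P gains (3.19%) and Ser2P gains (2.42%) at 4 h were above both backgrounds. Ser5P losses (1.45%) and Ser2P losses (1.36%) at 4 h lay near the second background. Gained regions occupied in untreated KARPAS422 had 1.98% and 1.98% for these gains and 2.29% and 1.07% for these losses. Ser5P losses (0.484%), Ser2P gains (0.194%), Ser2P losses (1.26%) and Pol II gains (0.0968%) at 2 h were near or below both backgrounds. The counts carry no test.

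The 46 regions with new Ser5P at 2 h included 21 at gene ends (7.37% of the 285) and 25 distal ones (3.34% of the 748). The share over all merged regions was 2.43%, and it was not taken for gene-end and distal regions apart, so the class difference may not be particular to the set. The best ranked was the start of FRA10AC1 (chr10:93701908-93703389, CDK9 fold enrichments of 9.88, 9.07, 7.17 and 7.001), followed by the start of CDKN1A, which encodes the cell-cycle inhibitor p21 (chr6:36675975-36678873). FRA10AC1 had Ser5P in 1 of 2 lists at 4 h, and Ser2P in all 6 lists, both DMSO lists included. Ser2P at CDKN1A was in 1 of 2 DMSO lists and in 4 of 6 lists in all. At CDKN1A the CDK9 fold enrichments were 4.92, 6.47, 9.23 and 12.4, Ser5P was in 0 of 2 DMSO lists, 2 of 2 at 2 h and 2 of 2 at 4 h, and no KARPAS422 list had a CDK9 peak. The region also meets the noncoding p53-linked genes PANDAR and DINOL, so its peaks cannot be given to one of them. A second region further inside CDKN1A (chr6:36680094-36681202) had fold enrichments of 5.88, 2.78, 8.28 and 4.19, Ser5P in 1 of 2 DMSO lists, and a peak in 1 treated KARPAS422 list. Next by rank were distal regions inside DOP1B, 43.1 kb from SPSB1 and 127.4 kb from CXCR4, each with 0 of 2 Ser5P lists in DMSO and 2 of 2 at 2 h. The 5 Ser5P losses at 2 h were all distal, as were 748 of the 1033 regions, and 1 lay inside IL4R, the interleukin-4 receptor gene.

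**Figure D5:**
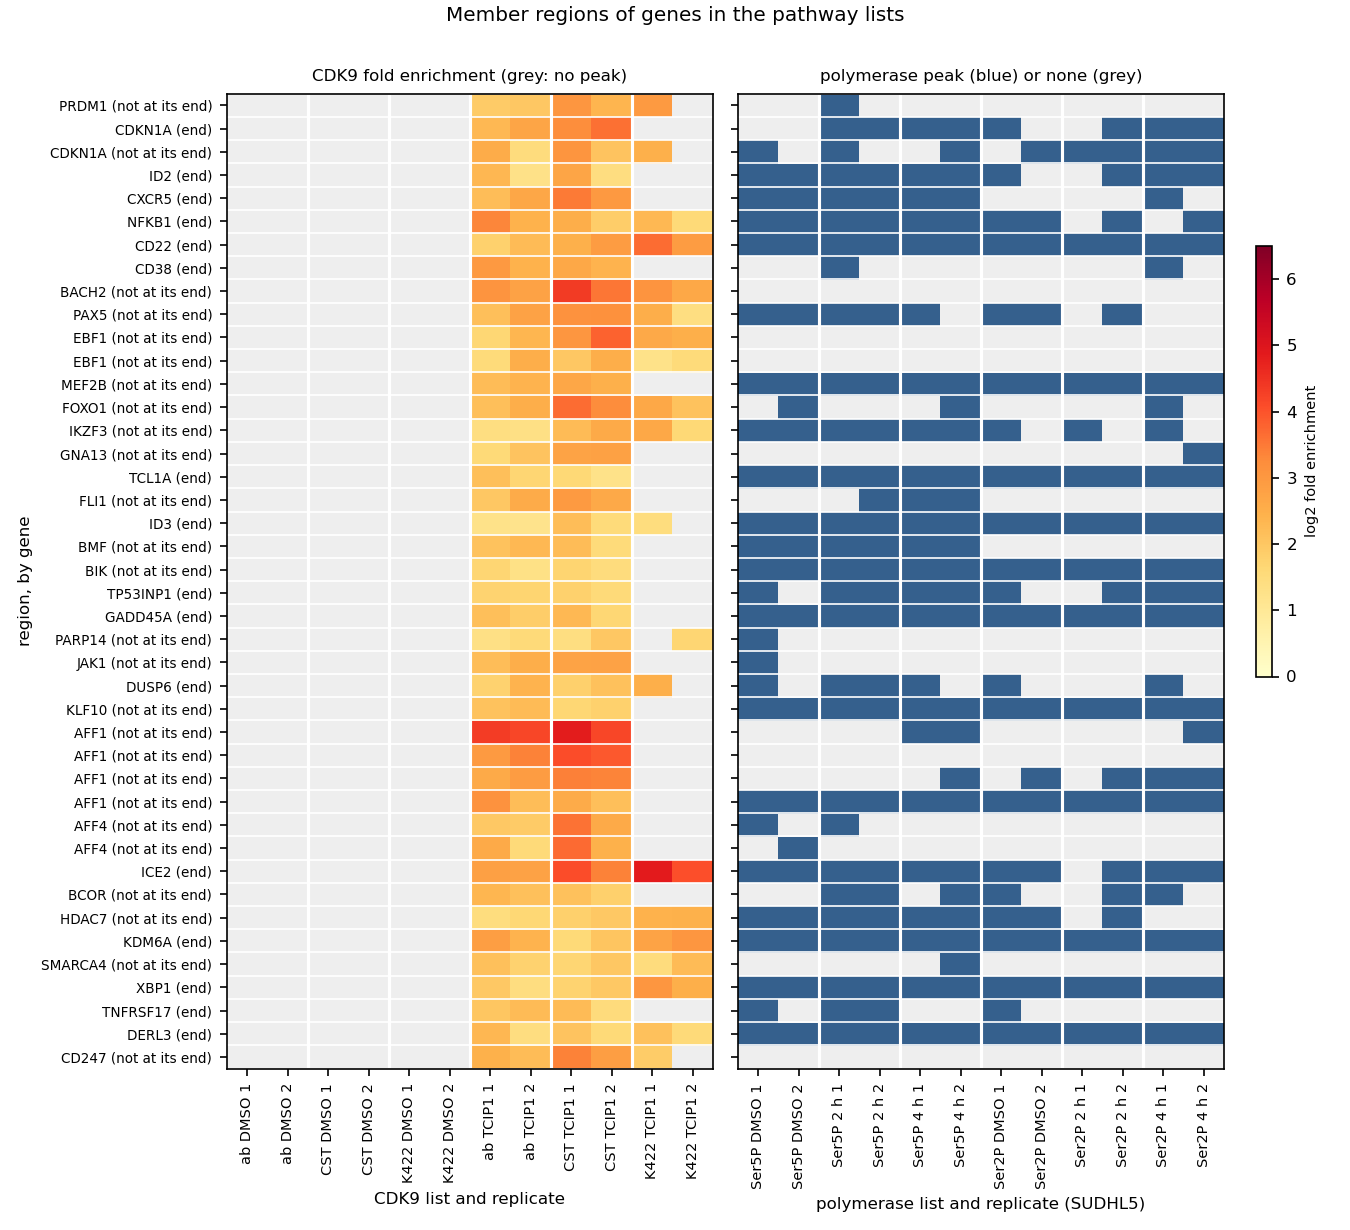
Regions of the set in genes of the pathway and marker lists (rows, with whether the region is at an end of that gene), with log2 CDK9 fold enrichment in 12 CDK9 lists at left and Ser5P and Ser2P peaks of SUDHL5 at right, labelled as in the plot of leading regions. The CDKN1A end row is grey in both Ser5P DMSO lists and blue in all 4 treated ones, while rows such as ID2, CD22 and XBP1 are blue throughout Ser5P.

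Genes of 14 lists, 315 genes in all, were looked up in the set, and 36 of them (11.4%) had a region inside or within 1 kb, beside 2.86% of all protein-coding genes. The lists were chosen with earlier results of these data known, and all protein-coding genes include those without any CDK9 peak. The 2 shares are thus no measure of enrichment. Long genes can hold more regions, and the lists were not compared by a test. Of 28 genes listed as BCL6 targets, 5 had a region: PRDM1, CDKN1A, ID2, CXCR5 and NFKB1, and for all but PRDM1 it lay at the gene's own end. At CXCR5, the receptor that draws B cells into follicles (chr11:118882339-118885125), CDK9 fold enrichments were 4.60, 6.39, 11.3 and 7.94, with Ser5P in all 6 lists and no KARPAS422 peak. At ID2, an inhibitor of E proteins, they were 4.98, 2.44, 6.54 and 2.72, also with Ser5P in all 6 lists. PRDM1, the plasma-cell regulator, had a distal region with 3.75, 4.01, 8.197 and 5.16, and Ser5P in 1 of 6 lists.

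Of 52 germinal-centre and B-cell receptor genes, the longest list, 12 (23.1%) had a region. The region lay at an end of the gene itself for CD22 (also the start of FFAR1), CD38, TCL1A and ID3, and further inside for BACH2, PAX5, EBF1, MEF2B, FOXO1, IKZF3, GNA13 and FLI1. The distal region inside BACH2, a repressor of plasma-cell fate (chr6:90083711-90085700), had fold enrichments of 8.46, 6.85, 20.4 and 11.6 in SUDHL5 and 8.42 and 6.32 in treated KARPAS422, and no polymerase peak in any list. EBF1, a master factor of the B lineage, held 2 such regions without polymerase. PAX5, another lineage factor, had a region that also meets the start of the noncoding gene LOC105376032, with Ser5P in 5 of 6 lists. By contrast TCL1A, a cofactor of AKT, had Ser5P and Ser2P in all 6 lists of each at its start, with CDK9 fold enrichments of 4.49, 3.22, 3.07 and 2.38.

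Of 26 pro-apoptotic genes 3 had a region (11.5%, near the 11.4% over all list genes): BMF and BIK, both BH3-only proteins, and TP53INP1, with fold enrichments between 2.48 and 4.91 and no KARPAS422 peak. All 10 anti-apoptotic genes were without one. Of 23 arrest genes 2 (8.70%), CDKN1A and GADD45A, a damage-response gene, had one, and GADD45A (chr1:67685123-67687353, fold enrichments 4.50, 3.67, 4.95 and 3.19) had Ser5P and Ser2P in all 6 lists of each. At BMF the Ser5P peak was in all 6 lists and Ser2P in 0, and at BIK both were in all 6.

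Among 29 P-TEFb and elongation genes, AFF1, AFF4 and ICE2 had a region, and among 27 BCL6 corepressor and chromatin genes BCOR, HDAC7, KDM6A and SMARCA4. The region inside BCOR, which encodes a corepressor bound by BCL6, had fold enrichments of 5.10, 4.42, 4.37 and 3.51, and Ser5P in 0 of 2 DMSO lists and 2 of 2 at 2 h. Plasma-cell genes had 4 of 16 (25.0%): PRDM1, XBP1, TNFRSF17 and DERL3. XBP1, the secretory stress factor (chr22:28799358-28801325), had 3.94, 2.69, 3.34 and 3.902 in SUDHL5 and 8.19 and 5.63 in treated KARPAS422. Immediate-early genes had 2 of 27 (DUSP6 and KLF10), interferon genes 2 of 25 (PARP14 and JAK1) and NF-kB genes 1 of 25 (NFKB1). T-cell markers had 1 of 12, a distal region inside CD247 without polymerase in any list, and myeloid markers 0 of 12 and genes of other tissues 0 of 14.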

How the data were processed

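Peak lists of 33 ChIP-seq samples were used, and 10 input samples have no list here. Per the submitters' processing notes, the authors used Bowtie2 and MACS2 with the builds hg38 and dm6, beside Trim Galore, Picard, SAMtools, deepTools, bedtools and FastQC. Tool versions, the control of each call and any filters: not given in the sources used here. Deposited lists give a ratio per peak (the authors' fold enrichment) and the authors' -log10 p and -log10 q, one list per sample, and the lowest -log10 q was 1.301. Of 286536 peaks, 25 on other contigs were left out.

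Peaks were merged and overlapped with Python 3.11.15, numpy 2.4.6, pandas 2.3.3 and scipy 1.17.1. A list held a region if 1 bp of a peak fell in it. Gene ends come from a RefSeq table of 59098 genes (GRCh38) and starts from its promoter table, which gives strand. List shares were compared by exact two-sided permutation over lists, or by swapping sets within each list, with Benjamini-Hochberg adjustment over 6. The rule was run on simulated lists with regions planted to fit it, which checks the counting and gives no support to the calls. Named regions were the 10 leading gene-end and distal ones, the 5 widest, the 5 at each edge of the rule, the 5 leading in treated KARPAS422, genes with most regions and list genes. The 5 regions leading in new Ser5P, the ZNF296, IL4R and BCOR results and the treated-SUDHL5 background were chosen after values were seen. Members and gene lists were chosen with earlier results of these data known. Alternatives were a stricter q (-log10 q of at least 5), 50% cover, summits, equal numbers of top peaks, other windows, replicate blocks and leaving out lists. Same-numbered Pol II lists of DMSO and 2 h correlated in their deviations over regions (r of 0.416, 0.307 and 0.130), each above 0.1, and this pairing comes from the data alone. It did not hold in every pair for Pol II at 4 h (0.511, 0.364 and 0.0808), and Ser5P and Ser2P have 2 pairs each, so no block entered the tests.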

Additional observations from a re-analysis of the deposited data

How the results depend on the processing

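Of 195 alternatives, 143 kept direction and side of the threshold or stayed within 1.5 times the count, 6 reversed, 36 lost the threshold and 10 counts moved further. Peaks covering 50% of a region gave 474 regions, only 196 overlapping the 1033, and 100 in both treated KARPAS422 lists. Equal numbers of top peaks gave 55 regions, 18 at gene ends and 19 in both treated KARPAS422 lists. Leaving out 1 list gave 1032 to 2033 regions (2033 without ab239364 treated replicate 1), 284 to 453 at gene ends and 280 to 449 in both treated KARPAS422 lists. That last count was 449 of 2033 without ab239364 treated replicate 1 and 437 of 1221 without KARPAS422 DMSO replicate 2. It was 419 of 1032 without KARPAS422 treated replicate 2, where only 1 treated list remained.

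The Ser2P difference at 2 h turned to 3.05 points with equal top peaks and 1.19 points after subtracting the share of all regions, and ran from -13.99 to 5.37 when lists were left out in turn (5.37 without 2 h replicate 1). Left-out lists gave -2.13 to 10.9 points for Ser5P at 4 h and -1.58 to 2.39 for Pol II at 4 h, the latter also -0.855 without DMSO replicate 1. The cause was not tested.

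With DMSO lists only, gene-end minus distal was 23.1 (Ser5P), 29.97 (Ser2P) and 8.55 points (Pol II), and the set minus occupied regions -26.99, -25.7 and -9.85. With treated lists only the values were 29.6, 31.6 and 13.7, and -23.8, -23.2 and -10.6. Leaving out 1 list gave 25.9 to 28.8 and 29.2 to 33.5 for gene-end minus distal, and -25.5 to -24.4 and -25.5 to -23.5 for the set minus occupied regions (Ser5P and Ser2P). For Ser5P and Ser2P, and for Pol II in DMSO lists only, these lost the threshold because fewer lists cannot reach it. Pol II in the 6 treated lists had exact permutation p of 0.0625 for gene-end minus distal and 0.03125 for the set minus occupied regions. Adjusted p was 0.125 for both. With replicate numbers as a block the 6 treatment differences were the same (10.2, 4.40, -4.31, 3.78, 3.07 and 0.419 points), with exact p of 0.5, 1, 1, 0.5, 0.25 and 0.75, and no call changed. For Pol II at 2 h the share was higher than in DMSO in 3 of 3 same-numbered pairs, with p = 0.25 the smallest that exact test allows. The Ser5P difference at 2 h was 5.26 points after subtracting the share of all regions, and 3.68 to 16.7 with a list left out.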
